A study of Mus musculus with 5 samples.

Results

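The stem cell self-renewal transcription factors described here are 9 genes, Hlf, Mecom, Meis1, Prdm16, Mllt3, Gata2, Gfi1b, Erg and Runx1. They were taken by symbol from the deposited count table of 39056 genes, all 9 were found, and all 9 passed the filter on low counts that left 13467 genes to be tested. The mice were C57BL/6 and were taken at postnatal day 15, and marrow cells gave 3 libraries from mice with a Gabbr1 null mutation, which affects a subunit of the GABA-B receptor, and 2 from wild-type (WT) mice. Each library was made from about 12000 sorted LSK cells, the lineage-negative, Sca-1-positive and Kit-positive fraction that contains stem cells and multipotent progenitors. The comparison asks how the transcripts of these regulators differ in blood stem and progenitor cells without Gabbr1.

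Blood stem cells keep dividing without differentiating under the control of a small network of DNA-binding proteins that act on each other's genes as well as on lineage genes. Gata2, Runx1 and Erg belong to a group of factors that often occupy the same enhancers in progenitor cells together with Tal1, Lyl1, Lmo2 and Fli1. Hlf, Mecom, Meis1 and Prdm16 are transcribed mostly near the top of the hierarchy and are shut down as cells commit, whereas Runx1, Erg, Gata2 and Gfi1b stay active in several committed lineages. Mllt3 reads acetylated and crotonylated histones and couples them to transcript elongation and Dot1l.

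Among the 9 genes, Hlf fell in null libraries and none rose, at a Benjamini-Hochberg adjusted p under 0.05 in the quasi-likelihood test of edgeR. Of all 13467 tested genes, 0.334% were lower and 2.15% higher by the same rule. At an unadjusted p under 0.05, Hlf, Mecom, Meis1 and Prdm16 were lower and no member was higher (background 4.84% lower and 7.99% higher). In these 4 genes every null library lay below both WT libraries, which held for 13.7% of tested genes, and no member had every null library above both WT libraries, which held for 15.5%. The other 5 members overlapped between genotypes. Log2 fold changes of null over WT were below 0 for 5 of the 9 members and for 50.8% of tested genes, with a median of -0.10 over the members and -0.0045 over all tested genes. In bulk samples, fewer cells of a type and less RNA per cell cannot be told apart.

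**Figure D1:**
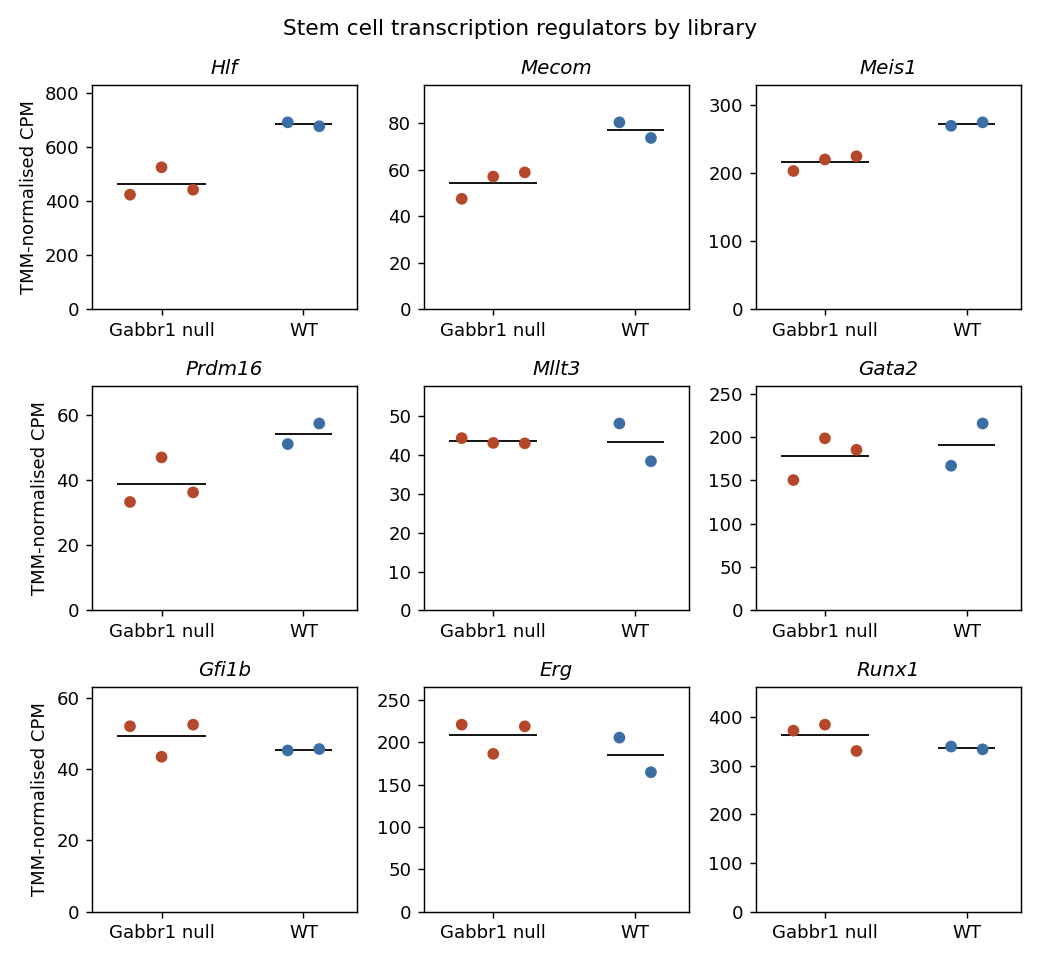
Each panel plots 1 regulator, with its TMM-normalised CPM on the vertical axis starting at 0, 3 Gabbr1 null libraries on the left and 2 WT libraries on the right; horizontal lines are group means. For Hlf, Mecom, Meis1 and Prdm16 all null points lie below both WT points, and for the other 5 genes the groups overlap.

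Total counts were between 6972753 and 8150774 per library. Gabbr1 itself was 38.5, 34.8 and 33.0 CPM in null libraries 1, 2 and 3, against 49.5 and 57.4 CPM in WT libraries 1 and 2. No source used here says which part of Gabbr1 is deleted, so these reads check nothing about the label. Kit, which encodes the stem cell factor receptor used in the sort, was 912 ± 66.4 CPM in null (SD, n = 3) and 1022 ± 37.7 CPM in WT (SD, n = 2), and Ly6a, which encodes Sca-1, was 22.3 ± 8.60 and 28.6 ± 2.48 CPM (edgeR adjusted p = 0.643 and 0.644). Null library 1 stood apart: Xist, the RNA that silences an X chromosome, had 22532 counts there and 4 Y-linked genes had 0, whereas in each of the other 4 libraries Xist had 21 counts or fewer and the Y-linked genes 1140 or more. It also had the lowest level of 5 members (Hlf, Mecom, Meis1, Prdm16 and Gata2) among all 5 libraries, so values without it are given beside the results.

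The windows of 250 bases before the annotated start of the 4 genes whose groups did not overlap are shown because these are the members that were lower together, from the RefSeq promoter table on GRCm38.p6, all on the minus strand and written 5′ to 3′. Capitals mark letters searched for as core motifs of the members' own families. Mecom has a distal start, which opens the transcript that includes the PR domain (MDS1-EVI1), and a proximal one, which opens the shorter EVI1 transcript; counts per gene do not separate them.
Hlf, chr11:90390918-90391167: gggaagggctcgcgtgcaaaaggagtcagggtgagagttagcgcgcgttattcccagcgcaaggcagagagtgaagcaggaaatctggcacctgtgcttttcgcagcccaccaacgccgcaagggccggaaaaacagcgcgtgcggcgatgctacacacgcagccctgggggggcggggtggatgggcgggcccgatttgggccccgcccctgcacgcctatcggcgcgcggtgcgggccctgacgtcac
Mecom distal, chr3:30509760-30510009: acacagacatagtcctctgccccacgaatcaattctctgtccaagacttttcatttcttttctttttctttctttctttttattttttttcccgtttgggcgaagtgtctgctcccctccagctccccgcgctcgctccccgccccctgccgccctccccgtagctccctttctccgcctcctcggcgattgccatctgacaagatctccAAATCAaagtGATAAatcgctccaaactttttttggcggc
Mecom proximal, chr3:30013205-30013454: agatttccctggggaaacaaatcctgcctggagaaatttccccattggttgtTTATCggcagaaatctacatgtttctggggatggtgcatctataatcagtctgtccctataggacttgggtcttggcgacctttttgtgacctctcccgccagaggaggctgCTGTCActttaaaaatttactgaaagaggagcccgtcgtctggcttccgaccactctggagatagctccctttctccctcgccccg
Meis1, chr11:19018970-19019219: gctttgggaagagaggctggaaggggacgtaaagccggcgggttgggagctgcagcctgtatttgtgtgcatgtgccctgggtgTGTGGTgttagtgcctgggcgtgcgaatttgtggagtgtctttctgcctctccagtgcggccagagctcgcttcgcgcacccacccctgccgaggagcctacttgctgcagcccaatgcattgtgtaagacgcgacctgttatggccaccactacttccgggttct
Prdm16, chr4:154636874-154637123: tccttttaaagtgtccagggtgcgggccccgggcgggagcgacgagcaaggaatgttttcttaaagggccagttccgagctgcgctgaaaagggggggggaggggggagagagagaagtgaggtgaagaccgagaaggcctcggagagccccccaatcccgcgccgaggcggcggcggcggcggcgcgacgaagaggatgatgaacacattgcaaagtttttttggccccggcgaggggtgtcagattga

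The letters searched on both strands were GATAA for GATA factors, AGGAAG for ETS factors such as Erg, TGTGGT for Runx1, TGACAG for Meis1, TTANGTAA for the PAR bZIP family of Hlf and AAATCA for Gfi1b; no matches overlapped. The distal Mecom window held AAATCA starting 40 bases and GATAA starting 30 bases before the start. The proximal Mecom window held GATAA and TGACAG, starting 198 and 86 bases before it and both read on the opposite strand, and the Meis1 window held TGTGGT at 166 bases. The Hlf and Prdm16 windows held none of the 6. Over all 15 windows of the 9 members, 4 held GATAA, 2 AGGAAG, 1 TGTGGT, 3 TGACAG, 0 TTANGTAA and 2 AAATCA. Among 32851 promoter windows of the same length the shares were 22.6%, 29.5%, 14.0%, 15.9%, 2.06% and 12.4% in the same order. A match describes letters in this window, not a binding site.

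Hlf (ENSMUSG00000003949.16, chromosome 11, 90336536 to 90390895, mm10), a PAR-family leucine zipper factor that marks long-term stem cells and restrains their cycling, had 424.2, 525.6 and 442.5 CPM in null libraries 1, 2 and 3, against 691.9 and 677.4 CPM in WT libraries 1 and 2. The highest null library lay well below the lower WT library, and the null libraries differed more among themselves than the WT libraries did. Its log2 fold change was -0.56 ± 0.13 (SE), that is 67.8% of the WT level with a 95% interval of 55.9% to 82.2% (edgeR adjusted p = 0.0398). The coefficient of variation was 11.6% over null and 1.5% over WT libraries, while counting alone gives at most 1.77% at its counts of 3184 to 5622. The call was lost without null library 1 (log2 fold change -0.50, adjusted p = 0.140), without null library 3 (-0.53, 0.183), without WT library 1 (-0.56, 0.110) and without WT library 2 (-0.58, 0.234). A fit with sex of the library as a term gave nearly the same values as leaving out null library 1, the only library it sets apart (-0.50, edgeR adjusted p = 0.130).

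Mecom and Prdm16 are related zinc finger proteins with a PR domain that are required for stem cell maintenance in mice. Mecom (ENSMUSG00000027684.16, chromosome 3, 29951296 to 30548008) had 47.6, 57.1 and 58.9 CPM in null libraries 1, 2 and 3, against 80.5 and 73.8 CPM in WT libraries 1 and 2. Its log2 fold change of -0.50 ± 0.12 (SE) did not pass (edgeR adjusted p = 0.0584), with a 95% interval of -0.77 to -0.23. Mecom lay on the other side of the threshold in DESeq2 (adjusted p = 0.0459), in a robust edgeR fit (0.0325) and with no filter on low counts (0.00558), and was at -0.41 without null library 1 (edgeR adjusted p = 0.263).

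Prdm16 (ENSMUSG00000039410.16, chromosome 4, 154316125 to 154636873) had 33.3, 47.0 and 36.2 CPM in null libraries 1, 2 and 3, against 51.1 and 57.4 CPM in WT libraries 1 and 2. Null library 2 came close to WT library 1, and the groups were separated by that gap only. Null over WT was -0.48 ± 0.15 on the log2 scale (SE, adjusted p = 0.169 in edgeR), and its interval of -0.82 to -0.14 was the widest of the 9 members. Without null library 2 it passed at -0.63 (edgeR adjusted p = 0.0378), with no filter it passed at -0.49 (0.0297), and without null library 1 it was at -0.38 (0.424). Prdm16 had 250 to 415 counts per library, for which counting gives a variation of up to 6.32%, against an observed 18.5% over the null libraries.

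Meis1 (ENSMUSG00000020160.18, chromosome 11, 18879817 to 19018985), a homeodomain factor that binds DNA with Pbx proteins and Hoxa9, had 202.7, 219.6 and 224.3 CPM in null libraries 1, 2 and 3, against 268.9 and 274.0 CPM in WT libraries 1 and 2. The libraries of each genotype lay close together and the groups were apart. The difference was the smallest of the 4, with a log2 fold change of -0.33 ± 0.11 (SE) and 79.4% of the WT level (95% interval 67.6% to 93.2%), and it did not pass (edgeR adjusted p = 0.166) here or in any of 15 alternative fits, the lowest adjusted p being 0.0905. Without null library 1 it was at -0.29 (adjusted p = 0.492 in edgeR). Exons of Meis1 overlap those of Gm16140 by 896 bases on the opposite strand and of Gm37818 by 1029 bases on the same strand. Shorter overlaps of 81 to 109 bases exist for Mecom, Prdm16 and Runx1. Of the overlapping genes, only B230104I21Rik, at Prdm16, was found in the deposited counts, with 0 or 1 count per library. Reads of the others that fall there could have been counted for the members.

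**Figure D2:**
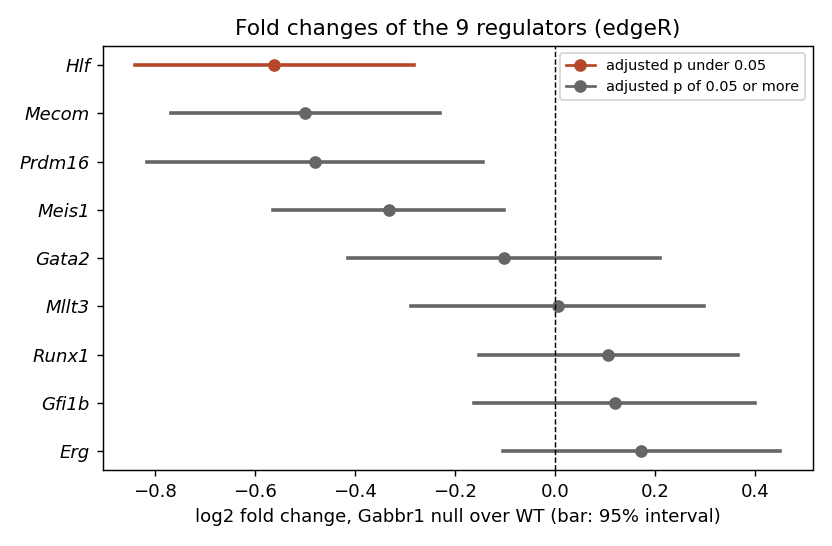
Points are edgeR log2 fold changes of null over WT and bars their 95% intervals, from 3 null and 2 WT libraries. The intervals of Hlf, Mecom, Meis1 and Prdm16 lie below 0, with only Hlf past the adjusted threshold, and those of the other 5 members include 0.

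Gata2 and Gfi1b act in stem cells and again in the megakaryocyte, erythroid and mast cell branches. Gata2 (ENSMUSG00000015053.14, chromosome 6, 88193891 to 88207032), a zinc finger factor needed for stem cell formation and survival, had 150.4, 198.5 and 185.3 CPM in null libraries 1, 2 and 3, against 166.9 and 215.6 CPM in WT libraries 1 and 2. The WT pair differed by more than the group means did, 178 ± 24.8 CPM in null and 191 ± 34.5 CPM in WT (SD, n = 3 and 2). The estimate was 93.2% of the WT level, with an interval of 75.1% to 115.6% (log2 fold change -0.10 ± 0.14 SE, adjusted p = 0.844 in edgeR), and its log2 value was 0.01 without null library 1. Gfi1b (ENSMUSG00000026815.14, chromosome 2, 28609450 to 28621982), a repressor that recruits Kdm1a and limits stem cell expansion, had 52.0, 43.4 and 52.4 CPM in null libraries 1, 2 and 3, against 45.2 and 45.6 CPM in WT libraries 1 and 2. Null library 2 lay below both WT libraries and the other null libraries above them (log2 value 0.12 ± 0.13 SE, adjusted p = 0.782 in edgeR, 95% interval 89.4% to 131.9% of WT).

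Erg and Runx1 lie on chromosome 16 and showed no called difference. Erg (ENSMUSG00000040732.18, 95359169 to 95586593), an ETS factor needed for definitive haematopoiesis that is also active in endothelium, had 221.0, 186.5 and 219.0 CPM in null libraries 1, 2 and 3, against 205.7 and 164.8 CPM in WT libraries 1 and 2. The genotypes interleaved, at an estimated 112.7% of the WT level with an interval of 93.0% to 136.6% (log2 fold change 0.17 ± 0.13 SE, adjusted p = 0.643 in edgeR). Runx1 (ENSMUSG00000022952.16, 92601466 to 92826149), the DNA-binding partner of Cbfb and a factor needed for the first blood stem cells, had 371.9, 384.1 and 330.1 CPM in null libraries 1, 2 and 3, against 339.1 and 333.4 CPM in WT libraries 1 and 2. Null library 3 lay just below the WT pair and the other null libraries above it (log2 value 0.11 ± 0.12 SE, adjusted p = 0.791 in edgeR, 95% interval 90.0% to 128.8% of WT). Both genes have more than 1 promoter in the RefSeq table (3 for Erg and 2 for Runx1), and counts per gene do not say which was used.

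Mllt3 (ENSMUSG00000028496.17, chromosome 4, 87769925 to 88033364) had 44.2, 43.0 and 42.9 CPM in null libraries 1, 2 and 3, against 48.0 and 38.3 CPM in WT libraries 1 and 2. The null libraries lay between the WT libraries. Its log2 value was 0.01 ± 0.13 (SE, adjusted p = 0.994 in edgeR), with an interval of 81.9% to 123.0% of the WT level. Of the 5 members without separated groups, Gfi1b, Erg and Runx1 had positive values in all 15 alternative fits, whereas Mllt3 was negative in 4 and Gata2 positive in 4.

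The members also differed in how much transcript they contributed. Per kb of merged exon, Hlf was the most abundant, at 69.5 ± 8.09 CPM per kb in null and 102.5 ± 1.53 in WT (SD, n = 3 and 2), followed by Erg at 60.2 ± 5.60 and 53.4 ± 8.34. Hlf was above Erg in each WT library, while in null libraries their ranges overlapped. Gata2, Runx1 and Gfi1b followed with null means of 33.0, 30.1 and 26.9 CPM per kb (WT 35.4, 28.0 and 24.8); neighbours in this order overlapped in null and were apart in WT. Meis1 was 20.5 ± 1.08 CPM per kb in null, below Gfi1b in every null library, and 25.8 ± 0.341 in WT, above Gfi1b in both WT libraries. Mecom, Prdm16 and Mllt3 formed the low end with null means of 4.39, 4.17 and 3.61 CPM per kb (WT 6.21, 5.82 and 3.60), where Mecom and Prdm16 overlapped in both genotypes and Prdm16 and Mllt3 overlapped in null libraries but not in WT. Exon length covers all annotated transcripts of a gene, so genes with long rarely used exons appear lower.

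**Figure D3:**
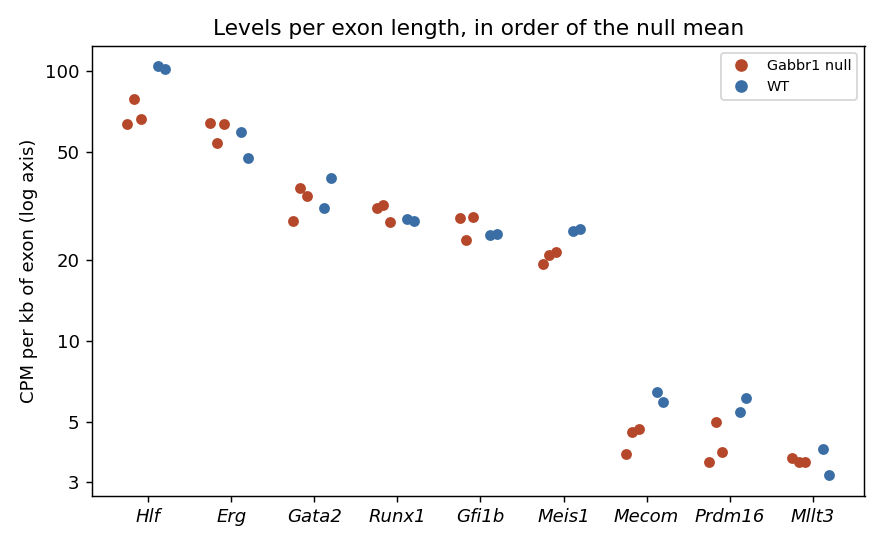
Points are libraries, in CPM per kb of merged exon on a log axis, with null libraries left of WT libraries and genes in the order of their null mean. Hlf and Erg are highest, Mecom, Prdm16 and Mllt3 lowest, and Gfi1b and Meis1 change places between the genotypes.

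A ratio of 2 genes within a library does not depend on how libraries are scaled. Hlf had 114.1, 136.8 and 134.1 counts per 100 Runx1 counts in null libraries 1, 2 and 3, against 204.1 and 203.2 in WT libraries 1 and 2. Meis1 had 54.5, 57.2 and 68.0 counts per 100 Runx1 counts in null, against 79.3 and 82.2 in WT. Mecom had 12.8 to 17.9 in null and 22.1 to 23.7 in WT, and Prdm16 had 8.96 to 12.2 in null and 15.1 to 17.2 in WT. Summed, the 4 genes had 84.3, 99.3 and 91.8 counts per 100 counts of the other 5 members in null libraries, against 135.7 in each WT library. The genes in these ratios were divided by the values themselves, so their direction is a description without a test.

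**Figure D4:**
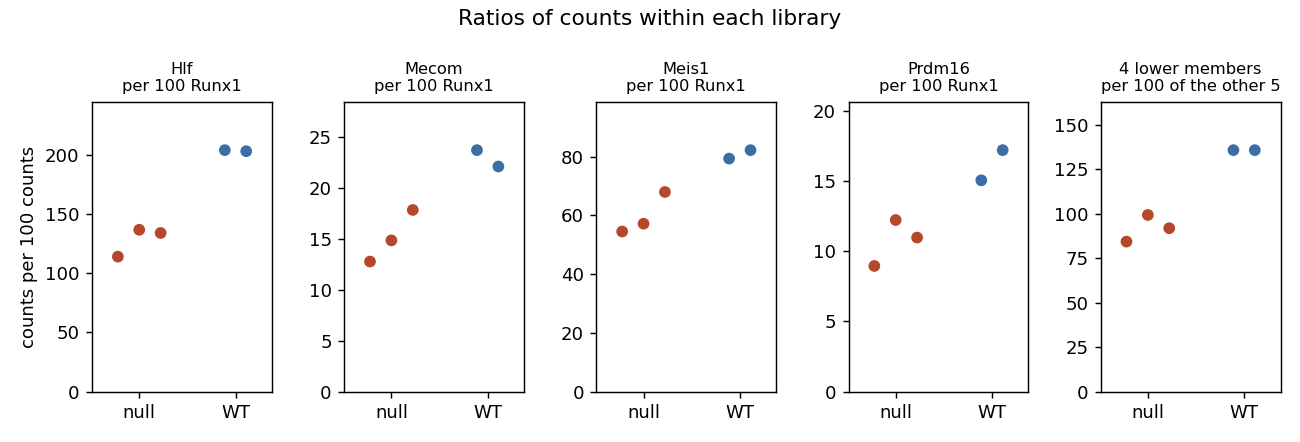
Each panel plots, per library, the counts of 1 gene per 100 Runx1 counts, or of the 4 lower genes together per 100 counts of the other 5, on axes that start at 0, with null libraries left of WT. Hlf lies between 114.1 and 136.8 in null and above 203 in WT (203.2 and 204.1).

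The same question was asked relative to a list of 7 surface genes of LSK cells. Kit and Ly6a encode the markers of the sort, and Cd34, Flt3, Cd48, Slamf1 and Procr mark subsets and were not sorted on. The list, most of it Kit, Cd34 and Flt3, summed to 2483 to 2711 CPM in null libraries, against 3025 to 3197 CPM in WT libraries. Scaling to this list moved the median log2 fold change of all genes to 0.25. On that scale Hlf was at -0.31 (edgeR adjusted p = 0.138), Mecom at -0.24, Prdm16 at -0.22 and Meis1 at -0.07, while Erg, Gfi1b, Runx1, Mllt3 and Gata2 were at 0.43, 0.38, 0.37, 0.26 and 0.16, and no member passed. Every null library then lay below both WT libraries for Hlf and Mecom (2.52% of tested genes) and above both for Gfi1b, Erg and Runx1 (46.9% of tested genes). Hlf had 170.9, 193.9 and 170.2 counts per 1000 counts of the list in null libraries 1, 2 and 3, against 228.8 and 211.9 in WT libraries 1 and 2, whereas Meis1 had 81.6, 81.0 and 86.3, against 88.9 and 85.7. Relative to the median of all genes on that scale, Hlf was at -0.56, which is near the value of the main fit by construction.

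Over the 5 libraries, the genes whose pattern was most like that of Hlf were Hnf4a, Spint2, Hoxa9, Ctla2a and Gcnt2, by the root mean square difference of log2 CPM centred on each gene's own mean, among 4787 genes with a mean of at least 50 CPM. These differences were 0.07 to 0.10, against a median of 0.32 over the ranked genes. Hnf4a, a nuclear receptor best known from liver, had 83.5, 101.9 and 91.5 CPM in null libraries 1, 2 and 3, against 129.5 and 146.3 CPM in WT libraries 1 and 2. Gcnt2, a branching glycosyltransferase, had 294.3, 307.1 and 301.5 CPM in null, against 413.3 and 434.5 CPM in WT. Among the members, Prdm16 (0.09), Mecom (0.11) and Meis1 (0.15) were nearest to Hlf, and Erg was farthest (0.42). All 5 libraries enter this measure, so a gene that differs between genotypes by a like amount is near Hlf by construction.

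Of 30 partners and cofactors of the members, 1 was lower and 0 were higher in edgeR at an adjusted p under 0.05. The shares of all tested genes were 0.334% and 2.15%. Lower and higher counts of partners were 1 and 1 in DESeq2 and 0 and 2 with scaling to the LSK list. Their median log2 fold change was -0.07 in the main fit. Hoxa9, the homeobox partner of Meis1, fell to 110.6, 117.7 and 109.5 CPM in null libraries 1, 2 and 3, against 168.6 and 149.2 CPM in WT libraries 1 and 2 (-0.50 ± 0.11 SE on the log2 scale, adjusted p = 0.0284 in edgeR). The call was lost without null library 1 (adjusted p = 0.0934), null library 3 (0.113), WT library 1 (0.0984) or WT library 2 (0.0786), in edgeR. Nor did Hoxa9 pass with scaling to the LSK list, at -0.24 (edgeR adjusted p = 0.1845), or with sex as a term, at -0.485 (0.0995). Hoxa10 was 14.2 ± 1.45 CPM in null and 23.5 ± 4.38 CPM in WT (SD, n = 3 and 2, edgeR adjusted p = 0.0708). Before adjustment, 4 partners had a p under 0.05 with lower values and 2 with higher ones (4.84% and 7.99% of all tested genes). Among proteins that share enhancers with Gata2, Erg and Runx1, Lmo2, a bridging LIM protein, was 260 ± 21.8 CPM in null and 335 ± 3.50 CPM in WT (edgeR adjusted p = 0.165), and Tal1, Lyl1 and Fli1 had log2 fold changes of -0.09, -0.18 and -0.07. Cbfb, the partner of Runx1, was at 0.06 and Kdm1a, the demethylase recruited by Gfi1b, at 0.06; these 6 were named after their values were seen.

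Of 18 tested relatives of the members (2 of 20, Meis2 and Meis3, did not pass the filter), 1 was higher and 0 were lower, with a median of -0.07. By the same rule 2.15% of all tested genes were higher and 0.334% lower. With scaling to the LSK list 3 relatives were higher and 0 lower. Ets1, an ETS factor of lymphoid cells, rose to 162.4, 123.2 and 144.3 CPM in null libraries 1, 2 and 3, against 78.7 and 60.5 CPM in WT libraries 1 and 2 (1.04 ± 0.15 SE on the log2 scale, adjusted p = 0.00246 in edgeR), a call lost without WT library 2 (0.123). Gata3, a factor of T cells, was 9.89 ± 0.929 CPM in null and 5.55 ± 1.41 CPM in WT (SD, n = 3 and 2, edgeR adjusted p = 0.158). Of 14 reported targets, 0 passed in edgeR, and 0 in DESeq2 and limma-voom, and the median was 0.05. With scaling to the LSK list 3 targets were higher, as were 1016 of all 13467 tested genes. An unadjusted p under 0.05 was reached by 1 lower and 3 higher targets (4.84% and 7.99% of all tested genes). Those with the lowest p were the cell cycle inhibitor gene Cdkn1a, at 14.3 ± 0.534 CPM in null and 8.31 ± 0.265 CPM in WT (edgeR adjusted p = 0.0708), and the erythroid factor gene Gata1, at 14.7 ± 3.14 and 8.76 ± 0.499 CPM (0.154).

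Stem cell surface genes had a lower median. Of 14 tested, 1 was lower and 0 were higher in edgeR at an adjusted p under 0.05 (0.334% and 2.15% of all tested genes). The median log2 fold change was -0.32. Lower and higher counts were 2 and 1 in DESeq2 and 0 and 1 with scaling to the LSK list. They were 1 and 0 in limma-voom, with sex as a term and without null library 1. Without null library 2 they were 0 and 0, and without null library 3 they were 0 and 1. Before adjustment, 7 lower and 1 higher gene had a p under 0.05 (4.84% and 7.99% of all tested genes). The 1 higher gene, which ran against the median of the list, was Itga2b, an integrin of stem cells and megakaryocytes. Itga2b was 39.8 ± 6.44 CPM in null and 25.4 ± 1.5 CPM in WT (SD, n = 3 and 2, edgeR adjusted p = 0.0692).

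Sums of the marker lists of most other cell types also differed between null and WT libraries. Here "led by" names the most abundant genes of a list. Counts of markers called are at an edgeR adjusted p under 0.05, by which 2.15% of all tested genes were higher and 0.334% lower. All 10 B lineage markers were higher (3 without WT library 2), and their sum was 504.6 to 856.7 CPM in null and 70.1 to 154.0 CPM in WT, led by Pax5 and Ebf1. Of 11 endothelial and stromal markers, 8 were higher, among them Lepr, which was at 0 in WT. All 11 summed to 358 to 367 CPM in null and 206 to 231 CPM in WT. That sum was led by Pecam1 and Tie1, which were not among the 8 (log2 fold changes 0.30 and -0.14, edgeR adjusted p = 0.2105 and 0.8056). Cartilage and bone markers summed to 23.2 to 198.8 CPM in null and 1.14 to 1.60 CPM in WT, led by Col10a1 and Col1a1, with Col2a1 and Acan at 0 in WT and Sox9 at 0 in all 5 libraries. Erythroid markers summed to 76.0 to 112.9 CPM in null and 34.6 CPM in each WT library, led by Mfsd2b and Car1. Mast cell and basophil markers, relevant to Gata2, summed to 16.5 to 40.2 CPM in null and 9.40 to 10.1 CPM in WT, led by Cpa3 and Cma1. Neutrophil markers, led by Mpo and Ngp, summed to 2438 CPM in null library 1, 1010 and 765 CPM in null libraries 2 and 3, and 546 to 592 CPM in WT. Most of the sum in null library 3 was Mpo, at 656.2 CPM, against 492.3 and 468.2 CPM in WT libraries 1 and 2. Ngp was 32.3 CPM there, against 36.1 and 27.2 CPM in WT. Of the 6 markers, 3 had every null library above both WT libraries (15.5% of all tested genes), and Ngp, Ltf and Camp overlapped. The megakaryocyte sum was lower, at 285 to 299.5 CPM in null and 348 to 391 CPM in WT, but its genes were split. Of 5 tested, 1 was lower and 1 higher in edgeR. The higher one, Pf4, was 14.75 ± 3.86 CPM in null and 5.78 ± 0.525 CPM in WT (SD, n = 3 and 2, edgeR adjusted p = 0.01925). Every null library lay above both WT libraries for 3 (15.5% of all tested genes) and below for 2 (13.7%). T and NK markers, led by Nkg7 and Klrd1, overlapped at 30.1 to 38.2 and 29.3 to 35.8 CPM. The part of these cells in the members' values was not tested. With their marker genes left out before scaling, Hlf was at -0.56 (edgeR adjusted p = 0.0414) and Mecom at -0.50 (0.0591). That setting changes only the scaling and keeps any reads of these cells in the members' counts, so it cannot show their part.

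**Figure D5:**
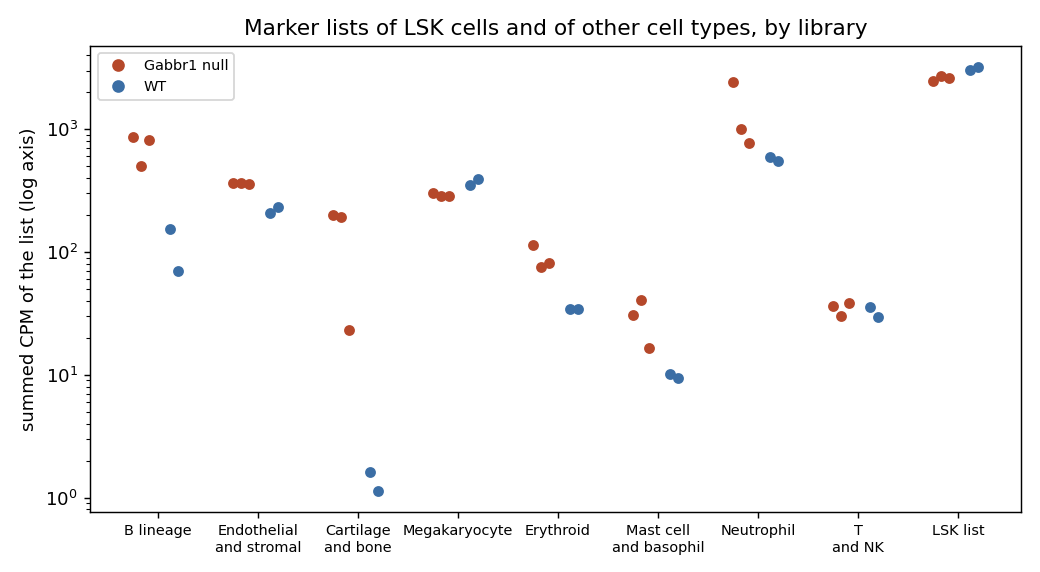
Points are libraries, null left of WT, in summed CPM of each marker list on a log axis. B lineage, endothelial, cartilage, erythroid, mast cell and neutrophil sums are higher in every null library than in both WT libraries, and LSK list and megakaryocyte sums are lower.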

How the data were processed

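RNA counts were analysed for 5 libraries of sorted LSK cells, 3 Gabbr1 null and 2 WT by the genotype label. Per the labels' protocols, library preparation started from 3.6 to 5 ng of RNA with a probe-based depletion of mouse transcripts, and reads were paired at 50 bp; the molecule field says polyA RNA. The submitters' processing notes name STAR, featureCounts and mm10, and leave versions, annotation release, strand setting and duplicates not given in the sources used here. Deposited values are whole-number counts, 1 column per library, without normalization. No label ties libraries to single animals (the extraction text gives 4 per genotype), so p-values measure the spread between libraries, which may be technical. Replicate libraries differed by more than sampling noise (chi-square per degree of freedom 7.61 to 12.0).

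Symbols, coordinates and exon lengths came from GENCODE M21 (99.5% of identifiers matched, ignoring versions). Genes kept by filterByExpr were scaled with TMM and tested by edgeR 4.0.16 (R 4.3.3, quasi-likelihood, genotype only, 3 residual degrees of freedom) over all tested genes. SE came from the F statistic. The code was tested on simulated data. Alternatives were other scalings and filters, DESeq2 1.42.0, limma-voom 3.58.1, a robust fit, sex as a term, and each library left out. Replicate numbers follow sample order and pair nothing. The members and gene lists were chosen with earlier results of these data known. Besides the members and checks, genes were named if past the threshold, among the 2 lowest p of a list, the 5 nearest to Hlf, or the 2 most abundant of a marker list; 1 gene that this rule names is not reported here. Intervals of counts cover counting error only.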

Additional observations from a re-analysis of the deposited data

How the results depend on the processing

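No paired analysis was possible because the labels give no replicate numbers shared between genotypes. The count of members lower was 1, and 0 with scaling to the LSK list or with sex as a term (which sets only null library 1 apart), 2 in DESeq2, in the robust fit and at an adjusted p under 0.1, and 3 with no filter. Leaving out each library gave 0 to 2. It was 1 with RLE or upper quartile factors, limma-voom, the stricter filter (CPM of at least 1 in every library) and markers of other cell types left out. No member was called higher under any of these. Members lower without overlap numbered 4, and 2 with the LSK list scaling; it was 4 with RLE or upper quartile factors, total counts or markers left out, and 4 to 5 with each library left out. Members higher without overlap numbered 0, 3 with the LSK list scaling, and 0 to 2 with each library left out. These counts without overlap were added after the data were seen. Groups that lack a library separate more readily, and the share of all tested genes was not computed for them. The counts with each library left out therefore do not show that the separation is robust.

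Over all genes, 45 were lower and 289 higher. The LSK list scaling gave 10 lower and 1016 higher, no filter 155 and 602, the stricter filter 173 higher, and an adjusted p under 0.1 81 lower. Leaving out each library gave 0 to 51 lower and 32 to 316 higher, lowest without WT library 2, where the remaining WT library was assumed to have the spread of the null group.

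Directions turned for members near 0. Mllt3 was at -0.005 with upper quartile factors, -0.0087 with sex as a term, -0.0064 without null library 1, and -0.147 to 0.168 over all libraries left out in turn. Gata2 was at 0.158 with the LSK list scaling, 0.0055 with sex as a term, 0.0077 without null library 1, and -0.288 to 0.0919 over all libraries left out in turn. The cause was not tested. Hlf, Mecom, Meis1 and Prdm16 were negative in all 15 alternative fits, with ranges of -0.65 to -0.31, -0.56 to -0.24, -0.36 to -0.07 and -0.63 to -0.22. With 2 WT libraries, each estimate has the wide interval given beside it.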
